A study of Ovis aries with 6 samples.

Results

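The genes described here were 8 claudins (CLDN1, CLDN3, CLDN4, CLDN7, CLDN8, CLDN10, CLDN11 and CLDN5) together with OCLN, which encodes occludin, and TJP1, which encodes a scaffold protein of the tight junction. They were chosen by gene name from a list of 10 names. Of these 10 names, 9 had a row among the 28394 genes of the files, and all 9 were among the 15320 genes that passed the filter of at least 10 counts in at least 3 sheep. No row carried the name CLDN5, the claudin of endothelial cells, which was not analysed here.

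Tight junctions are belts of contact near the top of neighbouring epithelial cells that limit what passes between them. Claudins and occludin span the membrane, claudins form the paired strands that either seal the gap or make it permeable to selected ions, and scaffold proteins of the TJP family tie the strands to the actin cytoskeleton. In skin, tight junctions are found in the granular layer of the epidermis, and claudins are also made in hair follicles, sweat glands, vessels and nerves.

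Skin RNA of 3 Super Merino (SM) and 3 Small Tail Han (STH) sheep was sequenced, with 1 poly(A) paired-end library per animal, to compare breeds that differ in their wool. SM is a fine wool breed and STH a coarse wool breed. The SM sheep were 128, 30034 and 30126, whereas XW3, XW5 and XW8 were the STH sheep. The labels give an age of 9 months for every sheep, whereas the methods of the study describe younger ewes. Housing and diet did not differ between the breeds, and the skin, from behind the shoulder blade, was sampled in autumn, at a time chosen for growing follicles. The samples were whole skin, so that fewer cells of a type and less RNA per cell cannot be told apart.

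The total count per sheep ranged from 28870583 to 44645091. A gene was called different between the breeds when it had an adjusted p below 0.05 in edgeR's quasi-likelihood test and a difference of over 1.5-fold in either direction. By this rule 0 of 15320 genes were called (0.00%), while 2762 genes (18.0%) had an unadjusted p under 0.05, and the edgeR likelihood ratio test and DESeq2 called 352 (2.30%) and 439 (2.87%). Leaving out SM sheep 128 raised the number of genes called by the main test to 1175 of 15203 (7.73%). Markers of basal keratinocytes, among them the keratin genes KRT5, KRT14 and KRT15, were abundant in all 6 libraries. The 7 markers summed to 2946 to 5183 in the RPKM unit, which scales fragments to exon length and library size.

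None of the 9 tight junction genes was called between SM and STH sheep (0 of 9, against 0.00% of all genes tested). None had an unadjusted p under 0.05 by edgeR's quasi-likelihood test, by its likelihood ratio test, by DESeq2 or by limma-voom. The smallest adjusted p of edgeR's quasi-likelihood test was 0.290, for CLDN8. The fold changes were small, between 0.55 for CLDN11 and -0.47 for CLDN8 on the log2 scale. The median was 0.08 for these 9 genes and 0.02 for all genes tested, and 6 of 9 had a log2 fold change above 0 (5 of 9 with the exon length trend removed), beside 51.4% of all genes. CLDN3 was the single gene of the 9 in which the lowest SM sheep exceeded the highest STH sheep, an order that 12.3% of all genes also showed. None had the opposite order, which 13.3% of all genes showed, so that 1 of 9 separated in either direction beside 25.6% of all genes.

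The deposited RPKM divides the fragments of a gene by its exon length and allows genes to be compared with each other. CLDN1 had the highest RPKM of the set, 201 ± 7.77 over the 6 sheep (SD, n = 6), and 98.4% of the genes tested lay below it. CLDN4 followed with an RPKM of 74.6 ± 16.2, above 95.9% of genes. By RPKM these 2 claudins stood apart from the rest, with no overlap between the sheep of CLDN1, CLDN4 and the next gene.

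TJP1 had an RPKM of 12.5 ± 1.37, OCLN 10.2 ± 1.12, CLDN8 7.25 ± 1.81, CLDN10 5.68 ± 1.14 and CLDN3 5.25 ± 0.911 (SD, n = 6 each). The ranges of the sheep overlapped between each neighbouring pair in this order, although TJP1 exceeded OCLN in 6 of 6 sheep and OCLN exceeded CLDN8 in 6 of 6 sheep. CLDN8 exceeded CLDN10 in 5 of 6 sheep, and CLDN10 exceeded CLDN3 in 3 of 6 sheep, which were the 3 STH sheep. CLDN7, with an RPKM of 0.944 ± 0.402, and CLDN11, with 0.841 ± 0.311, were the lowest and did not differ beyond their spread, and both lay below CLDN3 in every sheep.

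**Figure D1:**
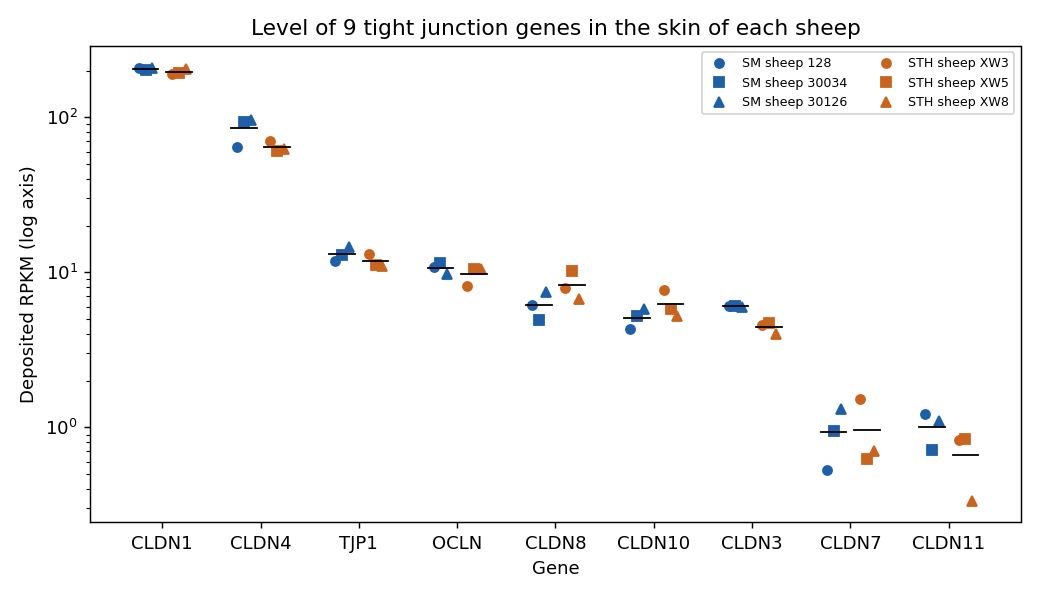
Deposited RPKM (log axis) of the 9 tight junction genes in each sheep, with SM and STH sheep as separate points and a bar for the mean of each breed. CLDN1 and CLDN4 lie far above the others, CLDN7 and CLDN11 lie lowest, and the breeds separate without overlap only for CLDN3.

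CLDN1, the barrier claudin of the epidermis without which newborn mice lose water and die, showed the smallest relative spread. It lies on chromosome 1 of Oar_v4.0 at 195114219 to 195129408 on the plus strand, with 636 bases of exon. Normalised to library size by TMM, its level in CPM, a count scaled to library size, was 194, 178 and 187 CPM in SM sheep 128, 30034 and 30126. It was 174, 182 and 191 CPM for XW3, XW5 and XW8 of the STH breed. The values of the breeds were interleaved, with the highest in an SM and the lowest in an STH sheep. The log2 fold change was 0.03 ± 0.13 (SE), with an adjusted p of 0.894 by edgeR's quasi-likelihood test, and -0.20 with the exon length trend removed. The 95% interval of the fold change ran from 0.837 to 1.25, and the coefficient of variation of the RPKM over the 6 sheep was 3.86%.

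CLDN3 and CLDN4 are sealing claudins that serve as receptors for an enterotoxin of Clostridium perfringens. Their genes are neighbours on chromosome 24 of Oar_v4.0, where CLDN4 lies at 33380542 to 33381871 on the minus strand and CLDN3 at 33411217 to 33412145 on the plus strand, 29345 bases apart. Each is listed as 1 uninterrupted exon span, of 1330 bases for CLDN4 and 929 for CLDN3. Neither overlaps another gene, although CLDN4 ends 887 bases from WBSCR27 on the other strand.

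CLDN3 was measured at 8.23, 7.86 and 7.82 CPM in the SM sheep, and 6.10, 6.54 and 5.49 CPM in the STH sheep. Every SM sheep lay above every STH sheep, with means of 7.97 ± 0.226 and 6.04 ± 0.524 CPM (SD, n = 3 each). The log2 fold change was 0.40 ± 0.19 (SE), with an adjusted p of 0.302 by edgeR's quasi-likelihood test, and the exact permutation p of 0.1 was the smallest that 3 against 3 sheep allow. The 95% interval of the fold change ran from 0.969 to 1.79, and the log2 fold change was 0.21 once the trend of each library on exon length was removed.

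CLDN4 reached 126, 173 and 181 CPM in the SM sheep, and 134, 119 and 122 CPM in the STH sheep. SM sheep 30034 and 30126 lay above all STH sheep, while SM sheep 128 lay within the STH range. The means of 160 ± 29.8 and 125 ± 7.63 CPM (SD, n = 3 each) differed by a log2 fold change of 0.36 ± 0.17 (SE), which did not pass, with an adjusted p of 0.292 by edgeR's quasi-likelihood test. Without SM sheep 128 the log2 fold change was 0.50 and the adjusted p 0.0654.

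The share of counted fragments behind the RPKM that entered the deposited total count was 65.5, 71.0 and 77.3% in the SM sheep, against 70.1, 66.9 and 66.6% in the STH sheep. In the mapping statistics of the study, counted fragments also include those in introns and between genes. The 3 sheep with the highest shares, 30126, 30034 and XW3, were also the 3 highest for CLDN4. With this share added to the model as a covariate, the log2 fold change of CLDN4 was 0.20, and with the exon length trend removed it was 0.19.

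CLDN7, a claudin of simple and glandular epithelia often found along the sides of the cell, was near the lower end of detection. It lies on chromosome 11 of Oar_v4.0 at 26560843 to 26562362 on the minus strand, 315 bases from ELP5 on the other strand. The 6 sheep had 15 to 46 counts, or 0.496, 0.841 and 1.17 CPM in SM and 1.39, 0.592 and 0.662 CPM in STH. The breeds overlapped fully, with a log2 fold change of -0.06 ± 0.54 (SE) and an adjusted p of 0.950 by edgeR's quasi-likelihood test. The 95% interval of the fold change ran from 0.410 to 2.23. Its sign turned, with a log2 fold change of 0.19 without SM sheep 128 and 0.42 without STH sheep XW3, and it was -0.53 with the counted share as a covariate and -0.33 with the exon length trend removed.

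CLDN8, known as the claudin that limits the passage of cations in the collecting duct of the kidney, had a higher mean in the STH sheep. It lies on chromosome 1 at 123761498 to 123763630 on the plus strand. Its level was 19.0, 14.6 and 22.5 CPM in the SM sheep, and 24.3, 32.4 and 21.2 CPM in the STH sheep. SM sheep 30126 lay above STH sheep XW8, so that the breeds overlapped. The means were 18.7 ± 3.99 and 26.0 ± 5.78 CPM (SD, n = 3 each), a 1.39-fold higher STH mean, with a log2 fold change of -0.47 ± 0.22 (SE) and an adjusted p of 0.290 by edgeR's quasi-likelihood test. This was the smallest adjusted p of the 9 genes, and without STH sheep XW5 the log2 fold change was -0.28. It was -0.54 with the counted share as a covariate and -0.56 with the exon length trend removed.

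CLDN10 forms ion-selective channels, and its loss in people causes defective sweating. It lies on chromosome 10 at 72184063 to 72284859 on the plus strand. Its level was 13.4, 15.6 and 17.3 CPM in the SM sheep, and 23.5, 18.4 and 16.6 CPM in the STH sheep. STH sheep XW3 was highest, while XW8 lay between SM sheep 30034 and 30126. The log2 fold change was -0.34 ± 0.19 (SE), with an adjusted p of 0.343 by edgeR's quasi-likelihood test, and the 95% interval of the fold change ran from 0.587 to 1.07. Without STH sheep XW3 the log2 fold change was -0.18. It was -0.48 with the counted share as a covariate and -0.42 with the exon length trend removed.

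CLDN11 is the claudin of central nervous system myelin and of Sertoli cells in the testis. It lies on chromosome 1 at 214888272 to 214903261 on the minus strand. It was read 29 to 117 times per sheep, giving 3.44, 1.93 and 2.98 CPM in SM sheep and 2.27, 2.42 and 0.960 CPM in STH sheep. STH sheep XW8 was lowest and the rest were mixed. The log2 fold change of 0.55 ± 0.42 (SE) had an adjusted p of 0.461 by edgeR's quasi-likelihood test, and the 95% interval of the fold change ran from 0.752 to 2.87. Without STH sheep XW8 the log2 fold change was 0.24, and without STH sheep XW5 it was 0.78.

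OCLN lies on chromosome 16 at 10217191 to 10265765 on the minus strand, and TJP1 on chromosome 18 at 27439183 to 27690705 on the minus strand. OCLN was measured at 57.4, 58.0 and 49.8 CPM in the SM sheep and at 42.8, 57.2 and 56.6 CPM in the STH sheep. STH sheep XW3 and SM sheep 30126 were the lowest, and the other 4 lay close together, between 56.6 and 58.0 CPM. The log2 fold change of OCLN was 0.08 ± 0.16 (SE), with an adjusted p of 0.796 by edgeR's quasi-likelihood test, and the interval of the fold change ran from 0.820 to 1.36.

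TJP1 was measured at 245, 256 and 291 CPM in the SM sheep and at 266, 234 and 232 CPM in the STH sheep. STH sheep XW3 was above SM sheep 128 and 30034. Its log2 fold change was 0.11 ± 0.14 (SE), with an adjusted p of 0.643 by edgeR's quasi-likelihood test, and the interval of the fold change ran from 0.868 to 1.35. With the exon length trend removed, the log2 fold change of TJP1, the gene with the longest exons of the set at 14166 bases, was 0.40, and with the counted share as a covariate it was 0.031. SM sheep 30126, which was highest for CLDN4 and TJP1, had the highest share of counted fragments.

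**Figure D2:**
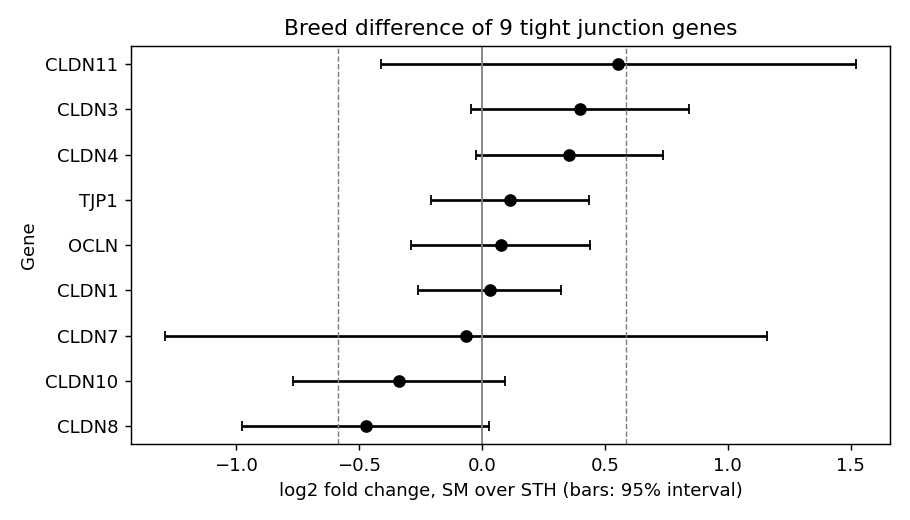
Log2 fold change of SM over STH for the 9 genes, as points with the 95% interval from edgeR's quasi-likelihood fit. Every interval includes 0, and those of CLDN7 and CLDN11, the genes with the fewest counts, are the widest.

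**Figure D3:**
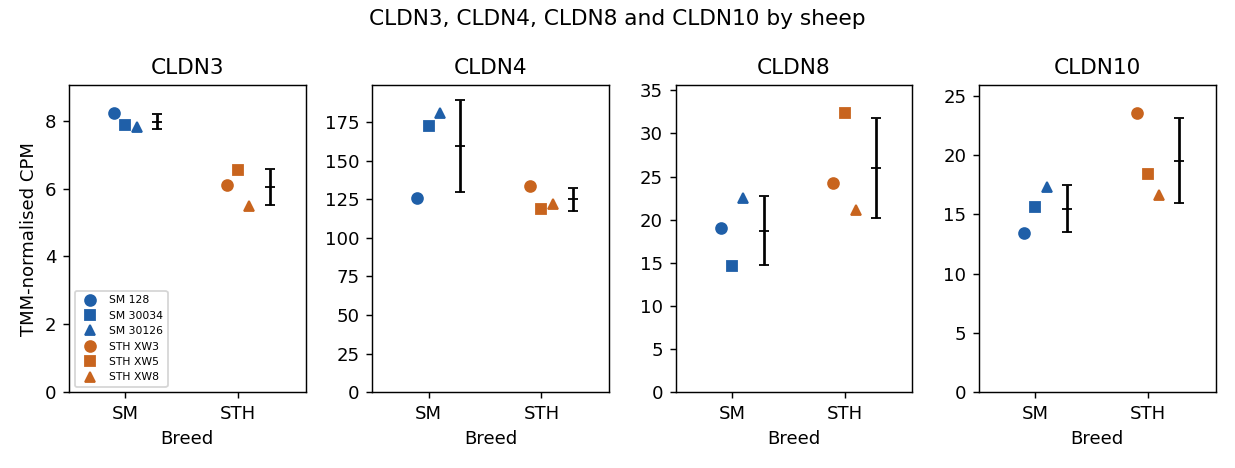
TMM-normalised CPM of CLDN3, CLDN4, CLDN8 and CLDN10 in each of the 6 sheep, with the mean of each breed and its SD. SM means are higher for CLDN3 and CLDN4, STH means are higher for CLDN8 and CLDN10, and the sheep of the breeds stay apart for CLDN3 alone.

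The files held 22 claudins, whose summed RPKM was 305, 325 and 340 in the SM sheep, against 298, 286 and 296 in the STH sheep. The breeds did not overlap, with SM higher, also when the sum was made from TMM CPM per kilobase. This order was also shown by 12.3% of all genes, and the nearest RPKM sums, 305 in SM and 298 in STH, lay close together. The sum was not fitted with the counted share as a covariate, which lowered the log2 fold change of CLDN4 from 0.36 to 0.20. CLDN1 made up 65.4% of the summed claudin RPKM and CLDN4 24.0%, on average over the 6 sheep, shares that also rest on the annotated exon lengths. CLDN12, a claudin outside the set, contributed 3.09%, more than CLDN8 with 2.38%, CLDN10 with 1.85% and CLDN3 with 1.70%. CLDN1 and CLDN4 together made up 90.1, 90.6 and 89.9% in the SM sheep, against 88.0, 88.2 and 89.7% in the STH sheep. These shares did not overlap, although the lowest SM and highest STH values lay close together.

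The balance between claudins was also read as the ratio of their RPKM within a sheep. Of the 36 pairs among the 9 genes, 8 (22.2%) had ratios without overlap between the breeds. This was no more than the 23.8% of all pairs of tested genes. The other pairs overlapped, among them CLDN1 to CLDN4 and CLDN3 to CLDN4. As examples of the 8, CLDN3 to CLDN8 was 0.993, 1.24 and 0.796 in the SM sheep, against 0.576, 0.464 and 0.596 in the STH sheep. CLDN4 to CLDN10 was 15.1, 17.7 and 16.8 in the SM sheep, against 9.11, 10.4 and 11.8 in the STH sheep. Both ratios were higher in every SM sheep. These ratios combine genes whose means lay on opposite sides between the breeds.

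How the genes varied together was described by correlation. Over the 6 sheep, 17 of the 36 pairs had a positive Pearson r of log2 CPM and 19 a negative one, with a median of -0.04, and 18 pairs were positive when deviations from the breed means were used. CLDN4 and TJP1 had an r of 0.81 (0.75 within breeds), and CLDN3 and CLDN11 an r of 0.76 (0.87 within breeds). OCLN ran opposite to CLDN7, with an r of -0.87 (-0.89 within breeds), and to CLDN10, with -0.82 (-0.89 within breeds). The neighbouring genes CLDN3 and CLDN4 had an r of 0.57 over all sheep and -0.32 within breeds. CLDN7 and TJP1 had an r of 0.79 (0.94 within breeds), and OCLN and TJP1 -0.62 (-0.91 within breeds). These values describe 6 libraries (n = 6) that share depth and cell makeup, and the counted share above had an r of 0.88 with CLDN4 and 0.92 with TJP1. With the same share, CLDN7 had an r of 0.76 and OCLN of -0.45, and the other genes lay between -0.29 and 0.33.

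Most of the other claudins were low in these skins, apart from CLDN12. Of 16 further names, 15 had a row and 7 were tested, and 0 of those 7 were called. CLDN12 was the most abundant, at 47.4 ± 1.99 CPM in SM and 49.7 ± 5.71 CPM in STH sheep (SD, n = 3 each). CLDN19, the claudin of Schwann cells, did not pass the filter, at 0.051 to 0.530 CPM. CLDN9 had no count in any library. If single counts were independent, this would allow at most 3 counts, or 0.0672 to 0.104 CPM depending on the sheep, for counting error only. Small counts were mostly even, so this floor may be too low. CLDN16, the claudin of magnesium uptake in the kidney, was 1.55 ± 0.898 CPM in SM and 2.91 ± 0.929 CPM in STH sheep (SD, n = 3 each), with an adjusted p of 0.338 by edgeR's quasi-likelihood test. CLDN6 and CLDN14 had higher SM means, with log2 fold changes of 0.92 and 0.46, and CLDN23 a higher STH mean, with -0.20, and their sheep overlapped.

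Of 11 other membrane proteins of the tight junction, 0 were called, 4 had higher SM means and 7 higher STH means. Of the 21 other plaque proteins, 0 were called, 9 had higher SM means and 12 higher STH means. Over the other claudins and both lists, 39 genes were tested, of which 3 with a higher SM mean (7.69%) and 5 with a higher STH mean (12.8%) had an unadjusted p under 0.05, beside 7.21% and 10.8% of all genes. The median log2 fold change of the 39 genes was -0.06.

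CGNL1, a cingulin-like protein of the junction plaque, was 195, 173 and 196 CPM in the SM sheep and 148, 124 and 119 CPM in the STH sheep. Its breeds did not overlap, with a log2 fold change of 0.53 ± 0.14 (SE), and the adjusted p of 0.240 by edgeR's quasi-likelihood test did not pass. SYMPK, a nuclear protein also located at the junction plaque, had a log2 fold change of 0.41 with an adjusted p of 0.255 by edgeR's quasi-likelihood test. JAM3, a junctional adhesion molecule, had a log2 fold change of 0.19 with overlapping sheep. LSR, an angulin of tricellular contacts, had a log2 fold change of 0.40 with an adjusted p of 0.264 by edgeR's quasi-likelihood test.

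Other genes had higher STH means. CXADR, the coxsackievirus and adenovirus receptor, was 194, 186 and 152 CPM in the SM sheep and 235, 253 and 231 CPM in the STH sheep, without overlap. Its log2 fold change was -0.44 ± 0.15 (SE), with an adjusted p of 0.247 by edgeR's quasi-likelihood test. ILDR1, another angulin, had a log2 fold change of -0.81, MPP5 of the Crumbs complex -0.79, and MPDZ, a scaffold with many PDZ domains, -0.78, with adjusted p between 0.247 and 0.260 by edgeR's quasi-likelihood test. The sheep of the breeds did not overlap for MPP5 and MPDZ, whereas they did for ILDR1.

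The 8 adherens junction genes tested all had higher SM means (median log2 fold change 0.16), beside 51.4% of all genes with a log2 fold change above 0. With the counted share as a covariate, 6 of 8 did so. All 8 were highest in SM sheep 30126, which also had the highest counted share, and 7 of 8 had higher SM means without this sheep. Only CDH1 separated the breeds without overlap. CDH1, the cadherin of epithelial cells, was 711 ± 88.9 CPM in SM and 607 ± 29.4 CPM in STH sheep (SD, n = 3 each), with an adjusted p of 0.401 by edgeR's quasi-likelihood test, and NECTIN4, a nectin, had a log2 fold change of 0.19. Of 9 regulators of epithelial genes, the 8 transcription factors had higher SM means (7 did with the length trend removed), GRHL3 and OVOL1 with log2 fold changes of 0.32 and 0.31. ESRP1, a splicing regulator, had a log2 fold change of -0.12. None of these genes was called by edgeR's quasi-likelihood test, its likelihood ratio test, DESeq2 or limma-voom.

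**Figure D4:**
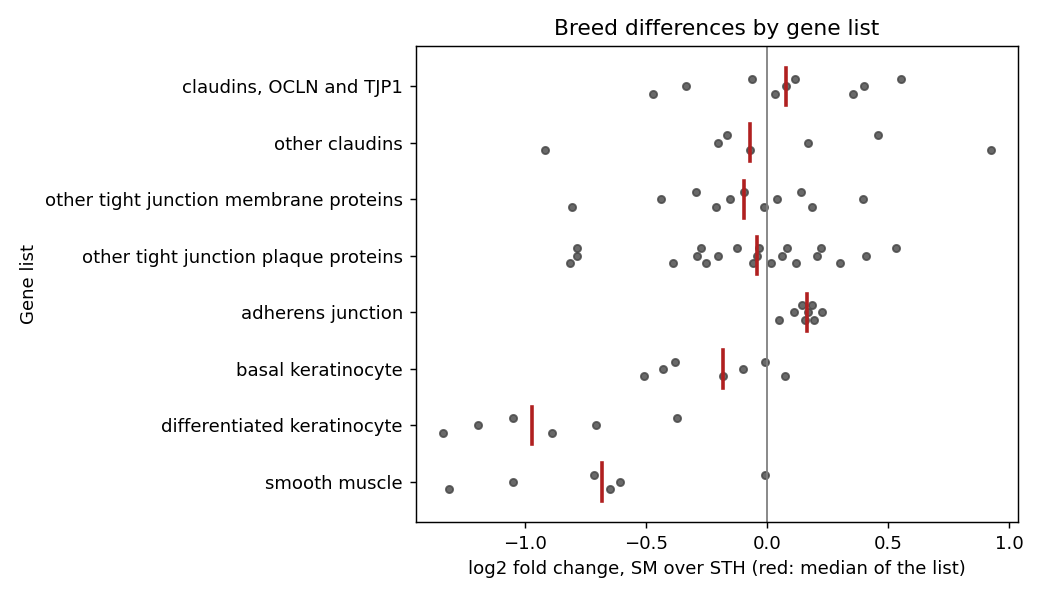
Log2 fold change of SM over STH for each tested gene of the tight junction and adherens junction lists and of 3 cell type marker lists, with the median of each list as a bar. The tight junction lists centre near 0, while the lists of differentiated keratinocytes and smooth muscle lie to the STH side.

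Markers of other cell types in the skin were measured beside the tight junction genes. The 6 markers of differentiated keratinocytes found in the files of 8 listed, none of them at 0, had a summed RPKM of 626 to 783 in SM and 911 to 1786 in STH sheep. The 6 smooth muscle markers, none at 0, summed to 382 to 496 RPKM in SM and 525 to 724 RPKM in STH sheep. Neither sum overlapped between the breeds, with median log2 fold changes of -0.97 and -0.68. In each list 5 of 6 genes had a higher STH mean and an unadjusted p under 0.05 (83.3%, beside 10.8% of all genes). From the same 6 sheep, the study had already reported KRT1, KRT10, IVL, MYH11, DES and ACTG2 as higher in STH. These shares are therefore not independent of that report. None passed edgeR's quasi-likelihood test or limma-voom, whereas the likelihood ratio test and DESeq2 each called KRT1, KRT10, DSC1 and IVL, and MYH11, DES, CNN1 and ACTG2, or 4 of 6 in each list, all higher in STH sheep. Their part in the values of the claudins was not tested.

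The 10 endothelial markers summed to 83.0 to 108 RPKM in SM and 53.9 to 90.8 RPKM in STH sheep, and the 8 markers of sweat gland and simple epithelium to 164 to 263 and 156 to 213 RPKM, both with overlap. Of the endothelial markers, 9 of 10 had higher SM means (median log2 fold change 0.42), or 7 of 10 without STH sheep XW8. With an unadjusted p under 0.05, 4 of 10 (40%) were higher in SM, beside 7.21% of all genes. In the other direction it was 1 of 10 (10%), beside 10.8% of all genes. This was EMCN, with a log2 fold change of -0.61 and no overlap between the breeds. AQP5, the water channel of sweat glands, had 0 counts in STH sheep XW3 and XW8 and at most 8 counts in the other sheep. The 8 Schwann cell markers summed to 50.9 to 68.6 RPKM in SM and 44.9 to 60.8 RPKM in STH sheep. The sums of 7 basal keratinocyte and 6 fibroblast markers overlapped as well, at 2946 to 3929 and 2510 to 3367 RPKM in SM, and at 3735 to 5183 and 2806 to 3441 RPKM in STH sheep. Of these markers, 6 of 7 and 5 of 6 had higher STH means, or 4 of 7 and 4 of 6 with the exon length trend removed. In each of these lists 1 gene was higher in STH with an unadjusted p under 0.05 (14.3% and 16.7%, beside 10.8% of all genes). None of the endothelial, sweat gland, Schwann cell, basal keratinocyte or fibroblast markers was called by edgeR's quasi-likelihood test or limma-voom. CDH19 of the Schwann cell list was the single gene of these lists called, higher in STH sheep, by the likelihood ratio test and DESeq2.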

How the data were processed

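Skin RNA of 3 SM and 3 STH sheep was analysed from the deposited tables, 1 per sheep. The authors mapped paired-end reads to the Ovis aries genome Oar_v4.0 with CLC Genomics Workbench. The deposited total count is a whole number per gene without normalization. The deposited RPKM was made by the authors from fragments and exon length, and served to compare genes. The deposited TPM and a score that the authors call CPM were not used. Of the total counts between 1 and 9, 76.3 to 79.7% per sheep were even, so single counts are not independent molecules. Floors cover counting error only and, as they take single counts as independent, may be too low.

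After a filter (minimum 10 counts, minimum 3 sheep), counts were normalised by TMM and tested in edgeR 4.0.16 (R 4.3.3) by the quasi-likelihood test with breed as the only term, with Benjamini-Hochberg adjustment over 15320 genes. The standard error is the log2 fold change divided by the square root of F, and intervals are at 95%. DESeq2 1.42.0, limma 3.58.1, other normalizations and filters, removal of the exon length trend and each sheep left out in turn were alternatives, and the model with the counted share was added after the data were seen. The quasi-likelihood and likelihood ratio tests were tried on simulated counts, with larger changes than those of the tight junction genes. The other steps were not tried in this way. Permutation tests are exact and two-sided. Each library is 1 animal.

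Genes and lists were chosen with earlier results of these data known. Beyond the tight junction set, the genes named were the 2 with the smallest p in each direction of a list, and some further genes, such as CLDN12, CLDN9, CLDN19 and AQP5, were named after their values were seen. No sequence is shown.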

Additional observations from a re-analysis of the deposited data

How the results depend on the processing

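None of the 9 tight junction genes was called under any alternative run. The number of all genes called was 0 by the main test, 352 by the likelihood ratio test, 439 by DESeq2, 2 with the newer dispersion estimate, 2 without a filter on low counts, 2 with the length trend removed, and 5 at an adjusted p under 0.1. Leaving out 1 sheep gave 0 to 1175 genes, the highest without SM sheep 128. Of 143 values of these genes, 6 changed sign, in CLDN1, CLDN7 and OCLN. CLDN7 was 0.018 by limma-voom, -0.53 with the counted share as a covariate, and -0.36 to 0.42 with 1 sheep left out. CLDN1 was -0.20 with the length trend removed and -0.0017 to 0.067 with 1 sheep left out, while OCLN was -0.048 to 0.16. The median of the other claudins was 0.10 with the counted share as a covariate and -0.19 to 0.20 with 1 sheep left out, that of the plaque proteins 0.0072 with the covariate and -0.20 to -0.03 with 1 sheep left out (lowest without SM sheep 128), and that of the membrane proteins -0.18 to 0.024 with 1 sheep left out. The median of the 9 genes was 0.05 to 0.18 with 1 sheep left out. With the length trend removed, CLDN3 was 0.21, CLDN4 0.19 and TJP1 0.40. The order of levels kept 5 of 9 places without STH sheep XW3 and 9 in the other cases. CLDN7 had no value with a minimum of 1 CPM. The cause of these changes was not tested. No paired analysis was possible because the replicate numbers follow the order of the samples and pair no SM with an STH sheep.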
